A study of Mus musculus with 10 samples.

Results

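The genes described here build, supply or switch on cilia. They were chosen by symbol alone: every probe set with 1 gene symbol that names an intraflagellar transport protein (Ift), a Bardet-Biedl protein (Bbs), a tectonic (Tctn), an axonemal dynein chain (Dnah, Dnali1), a tektin (Tekt), a radial spoke protein (Rsph) or a regulatory factor X (Rfx). The rule found 101 probe sets of 59 genes among 21789 probe sets of 19938 genes, and a gene with several probe sets was represented by the brightest on average. Of the 59 genes, 25 serve the primary cilium, 26 belong to the motile axoneme and 8 are RFX transcription factors. Arl13b, Rsph3a and Rsph3b fit the symbols but have no probe set with 1 symbol and are not among the 59.

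The study hybridised total RNA of 10 thyroid tumours of mice to Affymetrix whole-transcript arrays, 1 for each tumour. The 5 anaplastic thyroid carcinomas (ATC) carried TPOCreER, BrafV600E and p53 -/-, and the 5 papillary thyroid carcinomas (PTC) carried TPOCreER and BrafV600E, so that the Cre and the mutant Braf allele were common to both groups. All mice were of a mixed C57BL/6;129SvJae background. CreER is a recombinase that tamoxifen activates, and here the thyroid peroxidase promoter drives it in thyroid follicular cells. Tumour type and p53 genotype changed together, and the level of the deleted gene is not analysed here. The labels call the tumours biological replicates without saying whether each came from its own animal, so that p-values measure the spread between these tumours. The labels used here name no age and no time after induction. Levels are given as log2 intensity and differences as ATC minus PTC on that scale; errors are SDs over 5 tumours unless an SE is named, and the precision is limited by the small number of arrays.

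A primary cilium is a solitary antenna of the cell surface that grows from the basal body, and thyroid follicular cells bear such cilia toward the follicle lumen. Trains of intraflagellar transport (IFT) complexes carry cargo along it, IFT-B outward with kinesin and IFT-A back with dynein, while the BBSome moves membrane proteins in and out and the tectonics form part of the gate at its base. Motile cilia use the same transport and add dynein arms, radial spokes and tektin filaments, which make the axoneme beat. RFX factors bind the X-box, a sequence in the promoters of many ciliary genes.

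The primary cilium genes moved in both directions, and the motile genes that passed the test were all lower in ATC. Of the 59 genes, 5 rose and 8 fell in ATC, with 0.05 as the threshold on the adjusted p (limma with Benjamini-Hochberg adjustment over all genes) and 46 did not pass. Together 13 of 59 is close to the 21.2% of all genes that passed, made up of 11.5% of all genes higher and 9.72% lower. Among the 25 primary cilium genes 4 rose and 4 fell, with a median difference of −0.01 and a range from −0.68 to 0.86. Among the 26 motile axoneme genes 0 rose (0 also at an unadjusted p under 0.05) and 4 fell, with a median of −0.15 and a range from −0.97 to 0.12. Over all genes the median was −0.02. The difference between the classes was not tested, since the members were grouped with earlier results known. The ATC and PTC values did not overlap for 6 primary and 3 motile genes and for 1 RFX gene, where 16.9% of all genes were so separated.

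**Figure D1:**
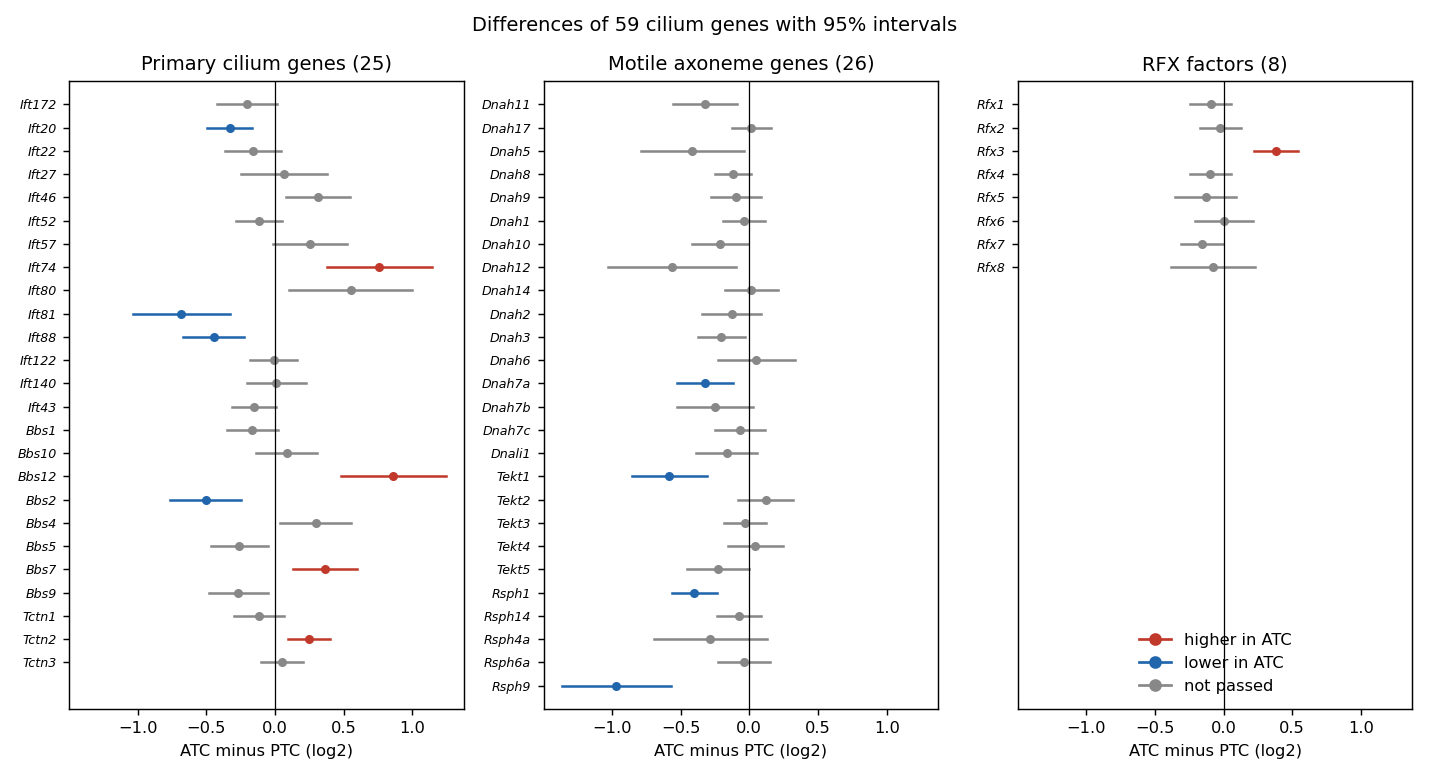
Difference between ATC and PTC tumours (log2, points) with its 95% interval (lines) for the 25 primary cilium genes, 26 motile axoneme genes and 8 RFX factors, coloured by the limma call. The primary cilium genes lie on both sides of 0 between −0.68 and 0.86, whereas 21 of the 26 motile genes lie below 0. Of all 19938 genes, which are not drawn, 10728 lie below 0. Of all genes with a mean from 6 to 7, the range of 20 of the motile genes, 68.8% lie below 0.

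2 arrays stood apart and touch what follows. The distribution was widest in ATC replicate 5, whose lower quartile was 6.02, below the 6.10 to 6.19 of the remaining ATC arrays and the 6.13 to 6.18 of the PTC arrays. Its upper quartile was 8.72, where the remaining ATC arrays had 8.59 to 8.64 and the PTC arrays 8.57 to 8.61. ATC replicate 2 kept the highest epithelial marker mean of the ATC tumours (9.56, the others 8.06 to 9.05, the PTC tumours 10.28 to 10.45). No pair of arrays was identical, and arrays correlated across genes at 0.970 to 0.981 within ATC, 0.980 to 0.993 within PTC and 0.927 to 0.974 between the groups. Detection above background is not given in the deposited table, so that differences of dim genes may be compressed. In tumour pieces, fewer cells of a type and less RNA per cell cannot be told apart.

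Rfx3, the RFX factor that drives ciliogenesis in several mouse tissues, was the member of its family that rose. Its values were 8.53, 8.44, 8.43, 8.24 and 8.31 in the ATC replicates 1 to 5, against 7.92, 7.96, 8.08, 8.01 and 8.10 in the PTC replicates 1 to 5. Every ATC tumour lay above every PTC tumour, and the difference of 0.38 (95% interval 0.22 to 0.54, adjusted p = 0.00402, limma) is a 1.30-fold rise. The other 7 RFX genes did not pass and differed by −0.16 to 0.01. Rfx2, a ciliogenesis factor highly active in testis, averaged 7.34 ± 0.05 in ATC and 7.36 ± 0.11 in PTC, and its 95% interval of −0.17 to 0.13 bounds the difference. Rfx7 differed by −0.16 (adjusted p = 0.144, and −0.21 with adjusted p = 0.0368 under array weights), and Rfx1 and Rfx4, which is known from the developing brain, by −0.09 and −0.10. Rfx5, which controls MHC class II genes rather than cilia, differed by −0.13 (adjusted p = 0.426). Among 8 measured class II genes and partners of Rfx5 0 passed (limma; Ciita did at an unadjusted p under 0.05; median −0.23), with the class II transactivator Ciita at −0.39, the invariant chain gene Cd74 at −0.40 and H2-Ab1 at −0.35. Rfx6, a factor of pancreatic endocrine cells, and Rfx8 differed by 0.01 and −0.08.

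X-box letters were looked for in promoter sequences from RefSeq (GRCm38.p6, 250 bases before to 50 after each start), which were found for 53 of the 59 genes; Dnah3, Ift122, Ift80, Ift81, Rsph1 and Rsph4a had no entry. The strict form is GTTNCC, 2 bases of any kind and the reverse complement of GTTNCC; the looser form allows GTNNCC in place of the left unit and contains the strict form; both were searched on both strands. A strict match stood in 2 of the 53 genes, Bbs7 and Tctn1, against 0.529% of all 27025 genes with a promoter. The looser form stood in 7 of 22 primary cilium genes, 1 of 23 motile genes (Tekt4) and 0 of 8 RFX genes, against 1.49% of all genes. Among primary cilium genes with a promoter, it stood in 2 of the 4 that rose, 0 of the 3 that fell and 5 of the 15 that did not pass. A match is a description of letters and shows no binding, and X-boxes with another spacing were not searched. The following stretches show the matches that lie before the start of primary cilium genes, with a match in capitals in each, 5′ to 3′ on the strand of its gene. They come from chr3:36613467-36613540 (minus strand) for Bbs7, chr5:124598657-124598730 (plus) for Tctn2, chr16:49699177-49699250 (plus) for Ift57 and chr5:136908087-136908149 (plus) for Ift22.
Bbs7: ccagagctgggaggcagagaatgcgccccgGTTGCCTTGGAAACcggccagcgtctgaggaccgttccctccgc
Tctn2: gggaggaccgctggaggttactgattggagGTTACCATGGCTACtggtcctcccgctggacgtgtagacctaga
Ift57: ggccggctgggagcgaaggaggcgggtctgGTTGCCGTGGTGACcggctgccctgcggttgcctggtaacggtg
Ift22: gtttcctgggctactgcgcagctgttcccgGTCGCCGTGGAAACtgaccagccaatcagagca

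In the Bbs7 promoter the match began 121 bases before the start, in Tctn2 62, in Ift57 87 and in Ift22 33 bases before it. Ift22 has a second looser match whose first base is 63 before the start. It is the first 14 letters of the printed stretch, left in lower case. Those of Bbs1, Bbs4 and Tctn1 lie within the first 50 transcribed bases. Of these 7 genes Bbs7 and Tctn2 rose in ATC, and the other 5 differed by −0.16 to 0.30 without passing.

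Within IFT-B the subunits did not move together: 1 of 11 rose, 3 fell and 7 did not pass. Of all genes 11.5% rose and 9.72% fell. Of all genes with a mean of at least 7, as 10 of the 11 had, 17% rose and 12.5% fell. Ift74 and Ift81, whose proteins pair within the IFT-B core and bind tubulin, went in opposite directions. Ift74 had 10.18, 9.58, 9.76, 9.77 and 9.28 in the ATC tumours, against 9.08, 9.03, 9.16, 9.07 and 8.43 in the PTC tumours. All ATC values were above all PTC values, PTC replicate 5 lay far below the rest of its group, and the rise was 0.76 (SE 0.17, 1.69-fold, adjusted p = 0.00971, limma). Ift81 had 7.81, 7.91, 7.91, 7.72 and 8.45 in the ATC tumours, against 8.31, 8.44, 8.63, 9.02 and 8.81 in the PTC tumours. ATC replicate 5 overlapped the PTC range here, and the gene fell by 0.68 on the log2 scale (SE 0.16, adjusted p = 0.0111). Leaving out any 1 array kept both calls, with differences of 0.63 to 0.87 for Ift74 and −0.81 to −0.59 for Ift81.

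Ift88, the core subunit whose loss in mice gives polycystic kidneys and absent cilia, was lower in every ATC tumour. It was at 7.81, 8.24, 7.99, 8.10 and 8.37 in ATC, against 8.51, 8.45, 8.67, 8.53 and 8.58 in PTC. The fall of 0.45 (95% interval −0.67 to −0.23) corresponds to a PTC over ATC ratio of 1.36 (adjusted p = 0.00912, limma). Ift20, which links the Golgi apparatus to the cilium, showed a smaller and tighter shift: 10.55, 10.75, 10.39, 10.51 and 10.53 in ATC, against 10.80, 10.84, 10.88, 10.93 and 10.94 in PTC. Its groups did not overlap either, and it fell by 0.33 (SE 0.07, adjusted p = 0.00876). Ift80, a peripheral subunit mutated in a human skeletal ciliopathy, was at 8.19 ± 0.50 in ATC and 7.64 ± 0.16 in PTC. Its difference of 0.55 did not pass (adjusted p = 0.0807), but did without ATC replicate 2, the lowest of the ATC tumours (0.68, adjusted p = 0.0306). Without ATC replicate 3, the highest at 8.97, the difference of Ift80 was 0.36 (adjusted p = 0.0986). Ift46, a core subunit, differed by 0.31 (adjusted p = 0.0607) and passed without ATC replicate 2 (0.39, adjusted p = 0.0163). Ift46 also passed under other settings, with genes of mean at least 7 (adjusted p = 0.0492), with arrays centred on their median (0.35, adjusted p = 0.0485) and without ATC replicates 2 and 5 together (0.35, adjusted p = 0.0396). The remaining IFT-B members Ift22, Ift27, Ift52, Ift57 and Ift172 differed by −0.20 to 0.25, with adjusted p from 0.181 to 0.799.

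The 3 members with an Ift symbol in IFT-A, the retrograde complex, differed by −0.15 (Ift43), −0.01 (Ift122) and 0.01 (Ift140), and 0 of them passed. At an unadjusted p under 0.05 the count was also 0. Ift43, a peripheral subunit, averaged 8.98 ± 0.12 in ATC and 9.13 ± 0.08 in PTC (adjusted p = 0.176), and passed with array weights (−0.22, adjusted p = 0.0391) and after a further quantile normalization (−0.20, adjusted p = 0.0402). For Ift122 and Ift140 the 95% intervals, −0.18 to 0.16 and −0.21 to 0.23, bound a change of either gene in either direction. Subunits of IFT-A under other symbols, named after their values were seen, leaned higher in ATC. Ttc21b rose by 0.32 (adjusted p = 0.0104, limma). Wdr19 differed by 0.18 (adjusted p = 0.113, under 0.05 unadjusted) and Wdr35 by 0.26 (adjusted p = 0.364).

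Of the 8 Bardet-Biedl genes, 2 rose, 1 fell and 5 did not pass, where 11.5% of all genes rose and 9.72% fell. Bbs12, which encodes a chaperonin-like protein that helps to assemble the BBSome, had the largest rise of the 59 genes. It was at 8.39, 8.24, 9.24, 8.63 and 8.35 in ATC, against 7.53, 7.57, 7.92, 7.90 and 7.61 in PTC. The lowest ATC tumour was above the highest PTC tumour, and the difference was 0.86 (SE 0.17, 1.82-fold, adjusted p = 0.00512, limma). Bbs10, the related chaperonin-like gene, differed by 0.08 (95% interval −0.14 to 0.31).

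Core BBSome subunits split. Bbs2 fell by 0.51 (SE 0.12, adjusted p = 0.0106), with 7.62, 7.76, 8.09, 7.99 and 7.89 in ATC, against 8.18, 8.33, 8.30, 8.33 and 8.73 in PTC and no overlap. Bbs7, which forms a subcomplex with Bbs2 and Bbs9, rose by 0.36 (SE 0.11, adjusted p = 0.0301), with 8.27, 7.95, 7.85, 8.25 and 8.0 in ATC, against 7.50, 7.74, 7.90, 7.78 and 7.60 in PTC. Only ATC replicate 3 and PTC replicate 3 crossed in Bbs7. The Bbs7 call ended without ATC replicate 1 or 4 or PTC replicate 1, 2 or 5 (0.31 to 0.37 in these fits, where the adjusted p ran from 0.0515 to 0.0738) and with the replicate number as a block (adjusted p = 0.0764). Bbs9 differed by −0.27 (adjusted p = 0.0766) and passed without ATC replicate 5 (−0.33, adjusted p = 0.0319), with array weights (−0.30, adjusted p = 0.0248), after a further quantile normalization (−0.30, adjusted p = 0.0310) and without ATC replicates 2 and 5 together (−0.34, adjusted p = 0.0470). Bbs4, a subunit at the centriolar satellites, differed by 0.30 (adjusted p = 0.104, and 0.38 with adjusted p = 0.0298 without ATC replicate 2). Bbs5, which binds membrane lipids, differed by −0.26 (adjusted p = 0.0746, and −0.30 with adjusted p = 0.0497 without ATC replicate 5), and Bbs1 by −0.16 (adjusted p = 0.214).

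At the gate of the cilium, Tctn2 rose and the other tectonics did not pass. Tctn2 was nearly the same in all ATC tumours, 8.04, 8.05, 8.08, 8.07 and 8.03, against 7.91, 7.67, 7.80, 7.71 and 7.95 in PTC. The difference of 0.25 (SE 0.07, 1.19-fold, adjusted p = 0.0267) was small but the groups were separate. The call ended without ATC replicate 1 or 3 or PTC replicate 2, 3 or 4 (0.21 to 0.25, adjusted p 0.0510 to 0.0712), with the replicate block (adjusted p = 0.0690) and without ATC replicates 2 and 5 together (0.26, adjusted p = 0.0635). Tctn1 and Tctn3 differed by −0.12 (adjusted p = 0.364) and 0.05 (adjusted p = 0.690), and the other probe set of Tctn1 gave 0.05.

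**Figure D2:**
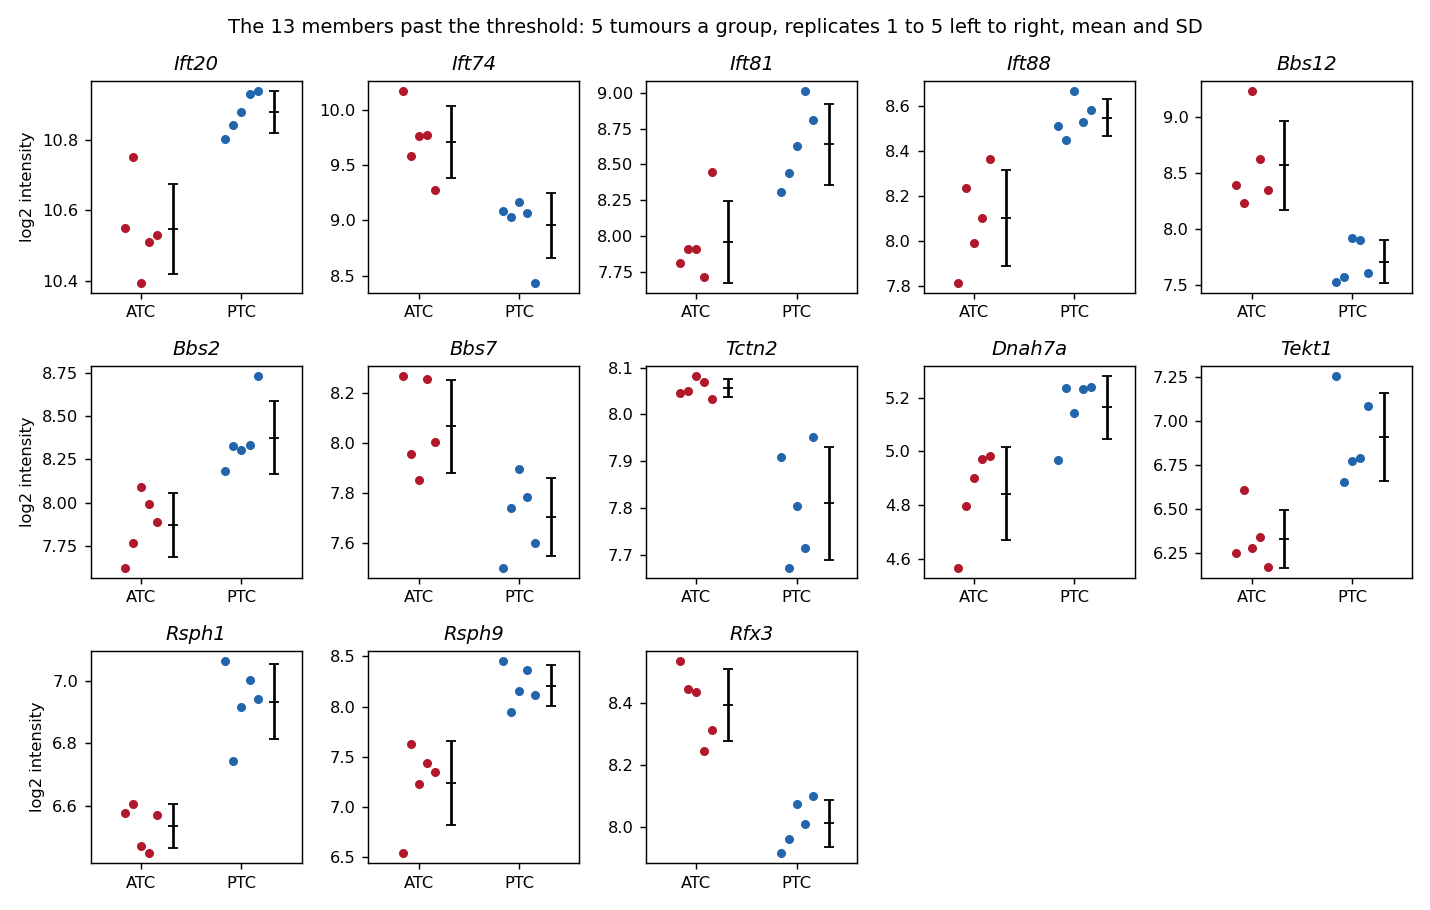
Log2 intensity of the 13 members past the threshold in 5 ATC tumours (red, left) and 5 PTC tumours (blue, right), with the mean and SD beside each group and an axis of its own for each gene. The groups are separate for 10 of the 13 genes and overlap for Ift81, Bbs7 and Dnah7a.

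Among the genes of the beating axoneme, the radial spoke gene Rsph9 had the largest fall of all 59 members. Rsph9, a protein of the spoke head, was at 6.54, 7.63, 7.22, 7.44 and 7.35 in ATC, against 8.45, 7.94, 8.16, 8.36 and 8.12 in PTC. Every ATC tumour was below every PTC tumour and ATC replicate 1 was the lowest. The fall was 0.97 (95% interval −1.37 to −0.57), a PTC over ATC ratio of 1.96 (adjusted p = 0.00347, limma), and it was −1.07 to −0.79 with any 1 array left out. Rsph1, another spoke head protein and a gene of human primary ciliary dyskinesia, fell by 0.40 (SE 0.07, adjusted p = 0.00313), with 6.58, 6.61, 6.47, 6.45 and 6.57 in ATC, against 7.06, 6.75, 6.92, 7.0 and 6.94 in PTC and separate groups. Rsph4a, a further spoke head gene, differed by −0.28 (adjusted p = 0.336), and its highest value was 6.89 in PTC replicate 5, where the other PTC tumours had 5.88 to 6.19. Rsph6a, known from sperm, and Rsph14 differed by −0.04 and −0.08. A pair of probe sets shared by the copies Rsph3a and Rsph3b, outside the rule because they carry both symbols, was at 9.57 and 9.64 in ATC and 9.99 and 10.11 in PTC. Their differences of −0.42 and −0.47 passed when p-values were adjusted over all probe sets (0.00369 and 0.0016). Of the 5 measured spoke genes, 2 fell, where 9.72% of all genes did.

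Of the tektins, which form filaments inside the axonemal microtubules of cilia and sperm tails, Tekt1 fell and the other 4 did not pass. Tekt1 was at 6.25, 6.61, 6.28, 6.34 and 6.17 in ATC, against 7.26, 6.65, 6.78, 6.79 and 7.09 in PTC. The groups were separate by a small margin between ATC replicate 2 and PTC replicate 2, and the fall was 0.58 (SE 0.12, adjusted p = 0.00673, limma). Tekt5 differed by −0.23 (adjusted p = 0.143), Tekt2 by 0.12 (adjusted p = 0.408), and Tekt3 and Tekt4 by −0.03 and 0.04.

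The dynein arm genes leaned to lower values in ATC, and of 16 of them Dnah7a alone passed. Dnah7a, an inner arm heavy chain, fell by 0.32 (SE 0.09, adjusted p = 0.0313), with 4.56, 4.79, 4.90, 4.97 and 4.98 in ATC, against 4.97, 5.24, 5.14, 5.23 and 5.24 in PTC. The call ended without ATC replicate 1 or 2 or PTC replicate 2, 3, 4 or 5 (−0.33 to −0.25, adjusted p 0.0605 to 0.0741), without ATC replicates 2 and 5 together (−0.35, adjusted p = 0.0552) and after a further quantile normalization (−0.30, adjusted p = 0.0605). Its mean is under 6, so that it was not tested with a filter on dim genes, and its near copies Dnah7b (−0.25, adjusted p = 0.200) and Dnah7c (−0.07, adjusted p = 0.645) share sequence with it, which leaves the source of the signal uncertain. 2 probe sets annotated to all 3 copies differed by −0.12 and −0.22 (adjusted p = 0.692 and 0.143 over all probe sets).

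The other 10 inner arm chains did not pass. Dnah12 had 5.87, 6.16, 5.89, 6.40 and 5.59 in ATC, against 6.35, 6.41, 6.58, 6.10 and 7.30 in PTC, a difference of −0.56 that did not pass (adjusted p = 0.0843). PTC replicate 5 was the highest and ATC replicate 5 the lowest. Dnali1, a light intermediate chain of the inner arms, averaged 6.75 ± 0.15 in ATC and 6.92 ± 0.17 in PTC (difference −0.17, adjusted p = 0.287). Dnah1, Dnah2, Dnah3, Dnah6, Dnah10 and Dnah14 differed by −0.21 to 0.05 (adjusted p 0.0861 to 0.932). Dnah3 is covered by 33 probe sets, of which 30 had a negative difference and 1 passed over all probe sets, with a median of −0.15; the one that stands for the gene gave −0.21. Probe sets of 1 gene are not replicates, and many of these were dim, with means from 3.46 to 7.55.

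In the outer arms, 0 of 5 heavy chain genes passed (limma), and at an unadjusted p under 0.05 Dnah5 and Dnah11 did. Dnah5, the heavy chain most often mutated in human primary ciliary dyskinesia, was at 6.16, 6.71, 6.30, 6.36 and 6.02 in ATC, against 6.48, 6.67, 6.69, 6.46 and 7.31 in PTC (difference −0.41, adjusted p = 0.115). PTC replicate 5 was the highest, and the other 4 PTC tumours lay within the ATC range. Dnah11 differed by −0.32 (adjusted p = 0.0509) and passed without PTC replicate 4 (−0.38, adjusted p = 0.0379), with genes of mean at least 6 (adjusted p = 0.0460) and with a variance trend (adjusted p = 0.0450). Dnah8, Dnah9 and Dnah17 differed by −0.12 to 0.01.

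The level of the motile genes bears on how these values can be read. Of the 26 motile genes 2 (Rsph9 and Dnah3) had a mean of at least 7 and 22 a mean of at least 6, against 24 and 25 of the 25 primary cilium genes. Among the 12674 genes of all kinds with a mean of at least 7, 17% were higher and 12.5% lower in ATC. The 24 primary cilium genes at that level had 4 higher and 4 lower, near these shares. Among the 4071 genes of all kinds with a mean from 6 to 7, 2.92% were higher and 7.03% lower in ATC, and 68.8% had a negative difference, with a median of −0.06. The 20 motile genes in that range had 0 higher and 2 lower, 17 negative differences and a median of −0.12. ATC replicate 5 held the lowest of the 10 values for 14 of these 20 genes and for 44.3% of all genes in the range, and PTC replicate 5 held the highest for 10 of the 20 and 17.7% of all. Without ATC replicate 5 the medians were −0.09 for the 20 motile genes and −0.02 for all genes in the range, and after a further quantile normalization they were −0.07 and −0.0027. Dim genes of all kinds thus leaned lower in ATC, and the part of this lean in the motile differences was not tested.

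**Figure D3:**
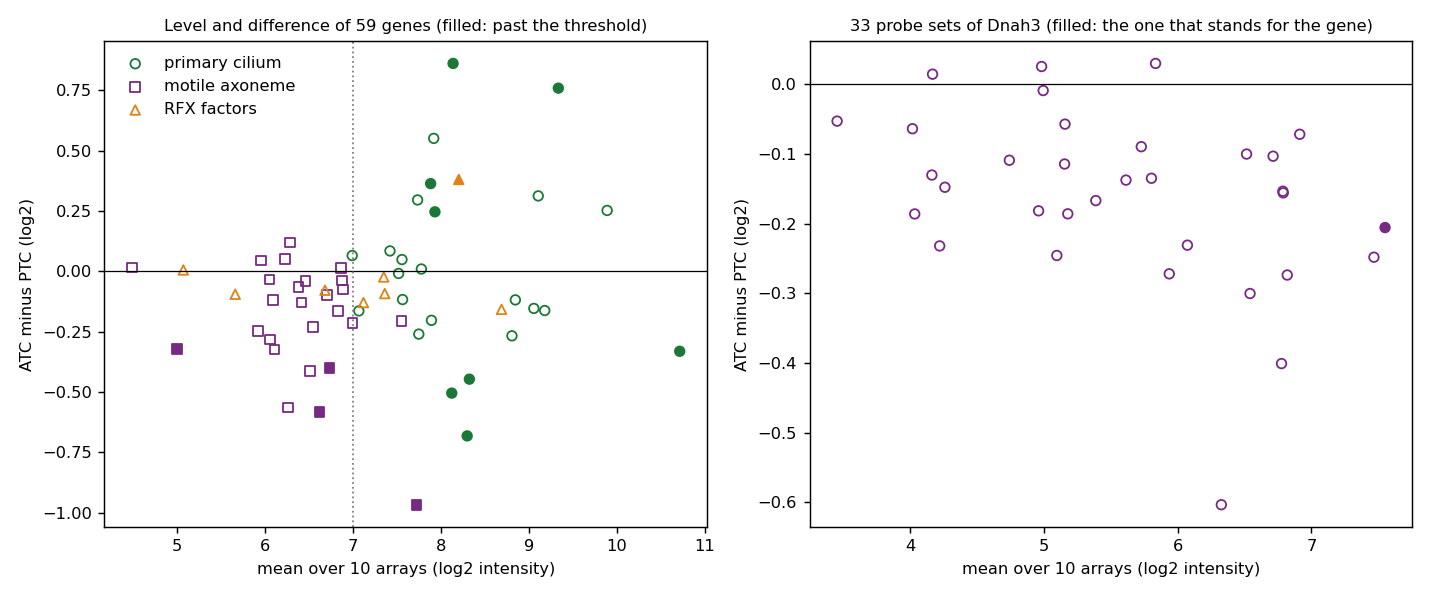
Left, mean over the 10 arrays (log2 intensity) against the difference between ATC and PTC (log2) for 59 genes, with the 13 past the threshold filled and the dotted line at a mean of 7; right, the same for the 33 probe sets of Dnah3, with the one that stands for the gene filled. All but 2 motile genes lie left of the dotted line and all but 1 of the primary cilium genes right of it.

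Tumour by tumour, the typical motile gene was lowest in ATC replicate 5 and highest in PTC replicate 5. The median deviation of the 26 motile genes from the PTC mean was −0.16, −0.04, −0.15, −0.11 and −0.23 in the ATC replicates 1 to 5, against 0.07, −0.09, −0.05, −0.07 and 0.11 in the PTC replicates. ATC replicate 2 thus lay within the PTC range. Over all genes the same tumours held the ends, with a median deviation of −0.05 in ATC replicate 5 and 0.03 in PTC replicate 5. For the 25 primary cilium genes these medians were −0.05, −0.06, −0.05, −0.11 and −0.03 in ATC, against −0.07, −0.02, 0.04, −0.01 and 0.003 in PTC, and the groups overlapped. The SD was larger in ATC than in PTC for 19 of the 25 primary and 10 of the 26 motile genes, where 68.6% of all genes had the larger SD in ATC.

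**Figure D4:**
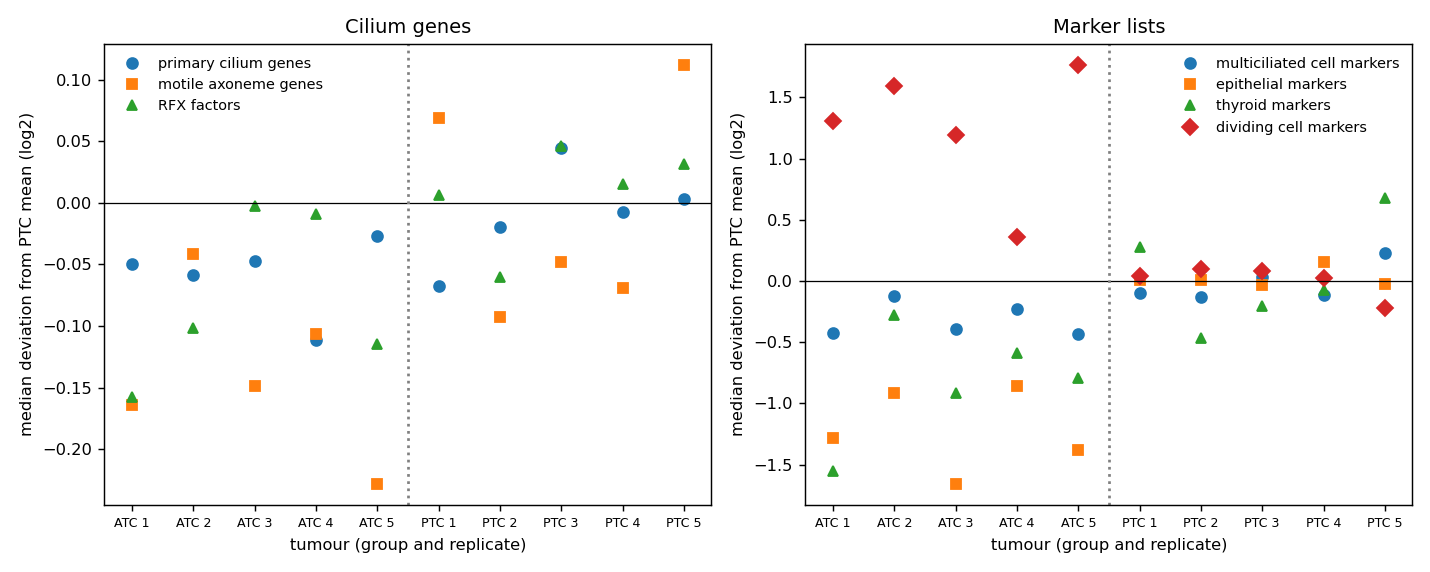
Median over the genes of each list of the deviation from the PTC mean (log2) in each of 5 ATC tumours (left of the dotted line) and 5 PTC tumours (right of it), for the cilium genes and, on a wider scale, for 4 marker lists. The motile genes range from −0.23 in ATC replicate 5 to 0.11 in PTC replicate 5, while the dividing cell markers are above 0 in all 5 ATC tumours.

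Further ciliary genes that the symbol rule leaves out were taken from lists. Beside the counts of this and the following lists, 11.5% of all genes were higher and 9.72% lower in ATC. Of 21 measured IFT, BBS and motor genes with other names 6 rose and 0 fell, with a median of 0.10. Kif3a, a motor subunit of the kinesin that drives outward transport, was at 9.17 ± 0.34 in ATC and 8.52 ± 0.08 in PTC (difference 0.66, adjusted p = 0.00684, limma). Tulp3, an adaptor that loads receptors onto IFT-A, rose by 0.47 (adjusted p = 0.00802) and Wdr60, an intermediate chain of the dynein of the return path, by 0.48 (adjusted p = 0.0279). The heavy chain of that dynein, Dync2h1, differed by −0.27 (adjusted p = 0.214). Of 16 measured transition zone and basal body genes 0 rose and 3 fell, with a median of −0.03. These were B9d1 (−0.35, adjusted p = 0.0427), a partner of the tectonics at the gate, and Tmem216 and Rpgrip1l (−0.30 and −0.33), which were named after their values were seen. Tmem231 differed by −0.37 (adjusted p = 0.0590), Cc2d2a by −0.34 (adjusted p = 0.279) and Cep290 by 0.12 (adjusted p = 0.608).

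Regulators of multiciliated cells showed no call: of 9 measured genes 0 passed (limma), and 2 did so at an unadjusted p under 0.05 (Foxn4 at −0.21 and Gmnc at −0.19). Foxj1, the master factor of motile ciliogenesis, averaged 6.54 ± 0.06 in ATC and 6.56 ± 0.20 in PTC (95% interval −0.23 to 0.18), and Mcidas differed by −0.02. Of 31 other measured axoneme genes 3 rose and 5 fell, with a median of −0.07. Cfap69, a protein of motile cilia and the sperm tail, was 7.90 ± 0.43 in ATC and 6.45 ± 0.18 in PTC (difference 1.46, adjusted p = 0.000379), Mns1 rose by 0.64 (adjusted p = 0.0363) and Enkur fell by 0.63 (adjusted p = 0.0329). Of 10 multiciliated cell markers 0 rose and 3 fell, with Tmem212 at −0.94, Capsl at −2.70 and Dynlrb2 at −0.26, and all 10 differences were negative. The mean level of the list was 6.34 to 6.89 in ATC and 6.98 to 7.35 in PTC. Capsl weighed heavily in that mean, with 7.52 ± 1.25 in ATC and 10.23 ± 0.21 in PTC. By the median deviation of the 10 markers from the PTC mean the groups overlapped, with −0.12 in ATC replicate 2 and −0.13 in PTC replicate 2. The remaining ATC tumours had −0.43 to −0.23 and the remaining PTC tumours −0.11 to 0.23. Foxj1 is itself on that marker list, and so are Dynlrb2 and Ccdc113 of the 31 other axoneme genes. The fall of Dynlrb2 is therefore counted in both lists. The part of such cells in the motile differences was not tested.

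The Hedgehog pathway, which signals through the primary cilium in vertebrates, was mixed. Of 16 measured cilium signalling genes 1 rose and 3 fell. That list also holds genes outside the Hedgehog pathway, among them Pkhd1 and Pkd1. Gli3, a transcription factor that is processed at the cilium, was at 8.80 ± 0.44 in ATC and 7.35 ± 0.19 in PTC (difference 1.45, adjusted p = 0.000453, limma). Gli1, a target gene that reads out pathway activity, fell by 0.20 (adjusted p = 0.0442), the receptor gene Ptch1, also a target, by 0.51 (adjusted p = 0.0432), and the fibrocystin gene Pkhd1 by 0.38 (adjusted p = 0.0413). Smo, the signal transducer, differed by 0.35 (adjusted p = 0.434), and without ATC replicate 5, the highest at 9.45, the difference of Smo was 0.09 (adjusted p = 0.807). Of 8 measured genes of cilium disassembly 4 rose and 0 fell: the kinase genes Aurka (0.85, adjusted p = 0.00492), Plk1 (0.84, adjusted p = 0.0127) and Nek2 (0.56, named after its values were seen) and the microtubule depolymerase gene Kif2a (0.68, adjusted p = 0.00674). Aurka, Plk1 and Nek2 are also mitotic genes, and all 8 measured dividing cell markers rose (list mean 8.40 to 9.79 in ATC and 7.79 to 8.12 in PTC). The part of dividing cells in the cilium values was not tested.

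Markers of several cell types also differed between ATC and PTC. Of 9 epithelial markers 0 rose and 7 fell, with a list mean of 8.06 to 9.56 in ATC and 10.28 to 10.45 in PTC, and Krt8 and Krt18 did not pass. Of 10 measured thyroid follicular markers 0 rose and 4 fell (6.58 to 8.20 in ATC and 7.94 to 9.18 in PTC), so that the tissue named in the labels could be read from its markers, less so in ATC. PTC replicate 5 held the highest value for 11 of the 26 motile genes and for 16.7% of all genes. This tumour had the highest thyroid (9.18) and multiciliated (7.35) list means of the 10 tumours. It also had the lowest macrophage (9.28) and dividing cell (7.79) list means. All 10 macrophage markers rose (10.65 to 11.41 in ATC and 9.28 to 9.73 in PTC). Of 9 mesenchymal markers 4 rose and 1 fell, of 2 measured C cell markers Scg2 fell (named after its values were seen), and of 8 skeletal muscle markers, 2 parathyroid markers and 6 spermatid markers 0 passed (limma, and 0 at an unadjusted p under 0.05), whose list means in ATC and PTC overlapped. Tumours varied widely in skeletal muscle (7.28 to 8.51 in ATC and 6.94 to 9.05 in PTC) and parathyroid markers (5.47 to 9.71 in ATC and 5.62 to 10.24 in PTC). The part of these cell types in the differences of the ciliary genes was not tested.

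Several calls in these further lists lay near the threshold. Those of B9d1, Enkur, Gli1, Mns1, Pkhd1, Ptch1 and Wdr60 each ended when an array was left out, in 6 (Wdr60) to 9 (Gli1) of the 10 such fits, with adjusted p of up to 0.105, for B9d1. Rescaling ended some of them too. The difference of Gli1 was −0.16 with arrays centred on their median (adjusted p = 0.124), and its call also ended after a further quantile normalization and with a variance trend. The difference of Pkhd1 was −0.34 with centring (adjusted p = 0.0826), and its call also ended after a further quantile normalization and with array weights. The difference of B9d1 lost its call with centring and with a variance trend (adjusted p = 0.0502 with the trend). Without ATC replicates 2 and 5 together Mns1 was at 0.37 (adjusted p = 0.172) and Plk1 at 0.61 (adjusted p = 0.0509), and Cd74 passed (−0.73, adjusted p = 0.0450). The difference of Tmem231 passed without ATC replicate 5 (−0.47, adjusted p = 0.0125) or PTC replicate 2 (−0.43, adjusted p = 0.0478), Cc2d2a passed without ATC replicate 5 (−0.52, adjusted p = 0.0328), and for Ciita the test was passed when ATC replicate 2 was left out (−0.55, adjusted p = 0.00692), as also with ATC replicate 5 left out besides (−0.57, adjusted p = 0.0135). Without ATC replicate 3, Cc2d2a differed by −0.19, Cd74 by −0.23 and H2-Ab1 by −0.20. Without PTC replicate 5, the members Dnah5, Rsph4a and Dnali1 differed by −0.27, −0.11 and −0.09.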

How the data were processed

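The deposited series table holds log2 probe set intensities, a scale read from the values since the authors' table does not state it. Per the submitters' processing notes, Affymetrix Power Tools and limma were used; no version, background correction, normalization or genome build was found in these notes. RNA was extracted with Qiazol and labelled with biotin, per the labels' protocols. Gene names come from the platform's annotation table, and all 59 members had gene IDs in the mouse table of GRCm38.p6. Updating symbols through these IDs left the same 59 members. A limma model (version 3.58.1, lmFit then eBayes, under R 4.3.3) was fitted to all 19938 genes without covariate or filter, testing ATC against PTC, with Benjamini-Hochberg adjustment over all of them. Lists are described by counts and medians. The fit was tested on simulated data. Figures used Python 3.11.15 and matplotlib 3.10.9.

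Named genes were all members past the threshold, the 3 largest differences of each role and list, and a few in any case. The members and lists were chosen with earlier results of these data known. Correlations of the deviations of same-numbered ATC and PTC arrays were −0.09 to 0.12, so the numbers were not taken as pairs.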

Additional observations from a re-analysis of the deposited data

Results flagged for a closer look

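In 118 sets of 5 values (59 genes in ATC and in PTC), 7 held a tumour whose gap to its nearest neighbour was over 0.71 of the range of its group. Chance flags about 1 in 20 groups. All 7 fell on ATC replicate 5 (4) or PTC replicate 5 (3). ATC replicate 5 was the highest for Ift81 (8.45, the others 7.72 to 7.91, gap share 0.741) and Tekt2 (6.62, the others 6.26 to 6.32, gap share 0.834), and the lowest for Dnah11 (5.62, the others 5.96 to 6.06, gap share 0.773) and Dnah1 (6.27, the others 6.46 to 6.52, gap share 0.748). PTC replicate 5 was the lowest for Ift74 (8.43, the others 9.03 to 9.16, gap share 0.815) and the highest for Bbs2 (8.73, the others 8.18 to 8.33, gap share 0.726) and Dnah5 (7.31, the others 6.46 to 6.69, gap share 0.732).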

How the results depend on the processing

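Alternatives were a replicate block, the mean or the dimmest of a gene's probe sets, a minimum mean of 6 or of 7, median centring, a further quantile normalization, a robust fit with a variance trend, weighted arrays, updated symbols and each array left out. A fit without ATC replicates 2 and 5 together was chosen after seeing the data. With an array left out, the counts of members ran from 3 to 8 higher and 7 to 10 lower, those of primary cilium genes from 2 to 7 higher and 4 to 6 lower, and those of motile genes were 0 higher and 3 to 4 lower. Without ATC replicate 1 or PTC replicate 2, 3 members and 2 primary genes rose, and without ATC replicate 2, 8 and 7. The share of all genes called in either direction moved as well, from 21.2% in the main fit. It was 17.5% without ATC replicate 1, 18.3% without PTC replicate 2 and 20.5% without ATC replicate 2. With the replicate block it was 18.9%, and with genes of mean at least 7 it was 31.4%. The replicate block left 3 members and 2 primary cilium genes higher and changed no call of a member but those of Bbs7 and Tctn2; among the further genes named, Gli1 no longer passed (adjusted p = 0.0945) and Tmem231 did (0.0487). The samples share only a number. With genes of mean at least 7, which left 31 members, 5 members and 1 motile gene were lower, and the medians were −0.0632 (primary) and −0.59 (2 motile genes). The median difference of primary cilium genes was 0.0227 after a further quantile normalization, 0.0280 with centring, −0.109 without ATC replicates 2 and 5, and −0.0691 to 0.0143 with an array left out, so its sign is not settled. The cause of these shifts was not tested. No named gene past the threshold changed sign.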
